A study of Mus musculus with 6 samples.

Results

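The 127 genes described here are the well-measured long intergenic noncoding RNAs (lincRNAs) of mouse embryonic sensory neurons. They were chosen by matching the Ensembl identifiers of the count files, with the version removed, to GENCODE M21 on GRCm38, and by taking genes of the type lincRNA with at least 300 reads summed over the 6 libraries. The imprinted or imprint-linked transcripts H19, Meg3, Rian, Mirg, Kcnq1ot1, Airn and Snhg14 were left out by name. The files list 47643 gene identifiers, of which 3543 are lincRNAs, and 1720 of these had at least 1 read. At or above 300 reads there were 130, and 3 of them (H19, Meg3 and Mirg) carried an excluded name. Just inside the limit lay 1110019D14Rik with 309 reads, Mir17hg with 311 and Gm5464 with 313, and just outside lay Gm27000 with 297, BC043934 with 296 and Gm26541 with 291.

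The libraries came from dorsal root ganglia, the clusters of sensory neurons beside the spinal cord, of CD-1 mice taken at embryonic day 13. All 6 samples received a lentivirus. In 3 of them it carried a control hairpin (shControl), and in 3 a hairpin against the mRNA of UHRF1 (shUHRF1), and the design text calls the neurons uninjured. Replicates carry the numbers 1 to 3 in both groups. Nothing in the labels ties them to separate cultures or litters, so p-values here reflect library-to-library spread, part of which may be technical. Same-numbered libraries of both groups deviated together. The main fit does not use the replicate number as a block, and the counts of calls with that block are given below. The comparison asks which transcripts differed after the knockdown.

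Long intergenic noncoding RNAs are transcribed by RNA polymerase II from their own start sites outside the exons of coding genes, and most are spliced and carry a poly(A) tail. Some act in the nucleus, such as Malat1 and Neat1 in nuclear bodies and Xist on the inactive X chromosome, some are the primary transcripts of microRNAs or small nucleolar RNAs, and for most no function is known. UHRF1 is a nuclear protein that binds hemimethylated CpG sites behind the replication fork and recruits the maintenance DNA methyltransferase DNMT1. Neurons of the ganglion have left the cell cycle.

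Reads assigned to genes ranged from 15599776 to 22382813 per library. Uhrf1 itself had 8, 6 and 5 reads in shControl and 2, 1 and 5 in shUHRF1, too few to pass the filter on low counts, so the knockdown could not be checked at this depth. Without the filter its log2 fold change was -1.43 ± 0.73 (standard error, n = 3 and 3, edgeR adjusted p = 0.245). Of 20 neuronal markers all were tested, 1 was higher and 2 were lower in shUHRF1. Of 18 markers of Schwann cells and satellite glia 14 were tested, with 9 higher and 1 lower, and of 15 fibroblast markers 12 were tested, with 11 higher and 0 lower. Of 12 macrophage markers 8 were tested, and 5 were higher. The mean fibroblast marker level, as log2(CPM + 1), where CPM are counts scaled to library size, was 1.32 to 1.42 in shControl and 2.43 to 3.26 in shUHRF1. Postn went from 2.96 to 58.9 CPM, Col3a1 from 1.37 to 28.3 and Sparc from 1.59 to 25.6, while Tcf21 was at 0 in both groups. Their summed level ranged from 261.5 to 411.2 and from 218.3 to 431.1 CPM, most of it Thy1, which neurons express too (319.9 and 181.5 CPM on average, not called). The summed macrophage markers ranged from 6.3 to 12.8 and from 17.6 to 46.8 CPM, and the mean log2(CPM + 1) of the glial markers from 2.48 to 2.56 and from 2.71 to 3.39. The glial sum, from 1920.4 to 2716.8 and from 1095.1 to 2269.1 CPM, was mostly Ngfr, which sensory neurons express too, while Sox10 went from 0.289 to 2.05 CPM. Whether such cells supplied any lincRNA difference was not tested. In these bulk samples a different number of cells of a type and a different amount of RNA per cell cannot be told apart.

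The lincRNAs were mostly low in abundance. The median member had 674 reads over the 6 libraries and an exonic length of 3039 bases, with lengths from 430 to 24030 bases, and 26 of the 127 had a single exon block. In GENCODE M21 100 of the 127 carry a clone or model name (Gm or Rik), a few of which RefSeq replaces with a gene name. RefSeq classes 85 as lncRNA, 6 as protein-coding and 1 as a transcribed pseudogene, and 35 had no RefSeq entry under that name. The 6 coding ones are Dbpht2, 1810058I24Rik, Tmem250-ps, Gm20939, D930016D06Rik and Gm37494, so for these genes the noncoding label holds in GENCODE M21 only. The 127 lay on 20 chromosomes.

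Levels per kilobase of exon fell off steeply after the first pair of genes. Gm26917 had 2169 CPM per kb and Malat1, the abundant RNA of nuclear speckles, 995. Next came D930028M14Rik with 64.4, Miat, a nuclear RNA of neurons, with 55.5, and 1700020I14Rik with 25.0 CPM per kb. RefSeq names the last of these Oip5os1, also known as Cyrano, a conserved RNA of the nervous system. Gm26825 followed with 18.5, Mir124a-1hg with 18.4, 1810058I24Rik with 18.3, 9530059O14Rik with 17.9 and Gm9916 with 12.9. Gm26917 (chromosome 17, 39843013 to 39846341) had 5656, 7489 and 9631 CPM in the shControl libraries and 5831, 8027 and 6682 in shUHRF1. The groups overlapped, and its log2 fold change was -0.15 ± 0.21 (edgeR adjusted p = 0.658). Gm26917 has a single exon block and no RefSeq entry under that name, and which RNA its reads come from was not tested.

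Gm26917 and Malat1 made up most of the summed level of the set. Together the 127 took 1.19% to 1.97% of the reads in genes. Their summed level was 12707, 15102 and 17237 CPM in shControl and 18524, 18485 and 16068 in shUHRF1 (two-sided exact permutation p = 0.2, where the smallest p that 3 against 3 libraries allow is 0.1). Without Gm26917 it was 7052, 7613 and 7606 CPM against 12693, 10458 and 9386, with no overlap (exact permutation p = 0.1). Without Malat1 as well it was 1995, 2332 and 2133 CPM against 1979, 2522 and 2151, and the groups overlapped (exact permutation p = 0.7).

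All 127 passed the filter and were tested within a fit over 15573 genes (edgeR quasi-likelihood test, called at a Benjamini-Hochberg adjusted p below 0.05). In shUHRF1 24 were higher, 9 were lower and 94 were not called. That is 26.0% of the set, beside 24.0% of all genes tested, 11.6% higher and 12.4% lower. The share called was thus near the background, while its direction was not even: 18.9% of the members were higher and 7.09% lower. The median log2 fold change was 0.16 over the members and 0.02 over all genes tested, and 75 of the 127 had a positive value. In 38 of the 127 members all shUHRF1 libraries lay above all shControl libraries and in 22 of the 127 below. Of all 15573 genes tested 3377 (21.7%) lay above in this way and 3474 (22.3%) below.

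The split is set here beside genes of like read counts. Of 3718 coding genes with 300 to 2000 reads 22.4% were called, 521 of them higher, and 310 or 8.34% of the 3718 were lower. Higher calls thus outnumbered lower ones in these coding genes too, so the uneven direction was not particular to the lincRNAs. Whether its size differs between the members and these coding genes was not tested. The 220 other lincRNAs that were tested, all under 300 reads or excluded by name, were called higher in 12.7% and lower in 0.455%. A member under 150 reads in 1 group entered the set through the other group. Of 17 members under 150 reads in shControl 8 were called higher (Gm13582, 4930570G19Rik, Redrum, Gm20045, Mir124-2hg, 2610028E06Rik, 4932412D23Rik and Mir17hg), and of 7 under 150 in shUHRF1 2 were called lower (2900097C17Rik and Gm26580). The 103 members with at least 150 reads in each group held 28 of the 38 whose shUHRF1 libraries all lay above, and 17 of the 22 below. Among these 103 members 16 were higher and 7 lower. That is 22.3% called beside 24.0% of all genes tested, and the median log2 fold change of these 103 was 0.08. Among the 21 members with at least 2000 reads 5 were higher and 2 lower, or 33.3% called.

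The count of called members depended on the libraries. Leaving out shControl replicate 3 left 11 higher and 3 lower, leaving out shControl replicate 1 left 16 and 4, and leaving out shUHRF1 replicate 3 left 17 and 6. With the replicate number as a block 32 were higher and 15 lower. The calls over all genes moved in the same fits. They numbered 3735 in the main fit, then 1768, 2018 and 2171 with those libraries left out, in that order, and 4820 with the block. Of the 33 called members 13 kept their call in each of the 14 other fits over the full set, which changed the tool, the scaling, the filter or the libraries. They are Neat1, Redrum, Gm13582, Gm2824, 4930570G19Rik, AI427809, Gm45495, Gm20045, 6720427I07Rik and Mir124a-1hg among the higher ones, and Gm7292, Tmem250-ps and Gm16001 among the lower ones. Of these, Redrum, Gm13582, 4930570G19Rik and Gm20045 had under 150 reads in shControl and entered the set through shUHRF1. A call kept in other fits of the same libraries does not remove that limit.

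**Figure D1:**
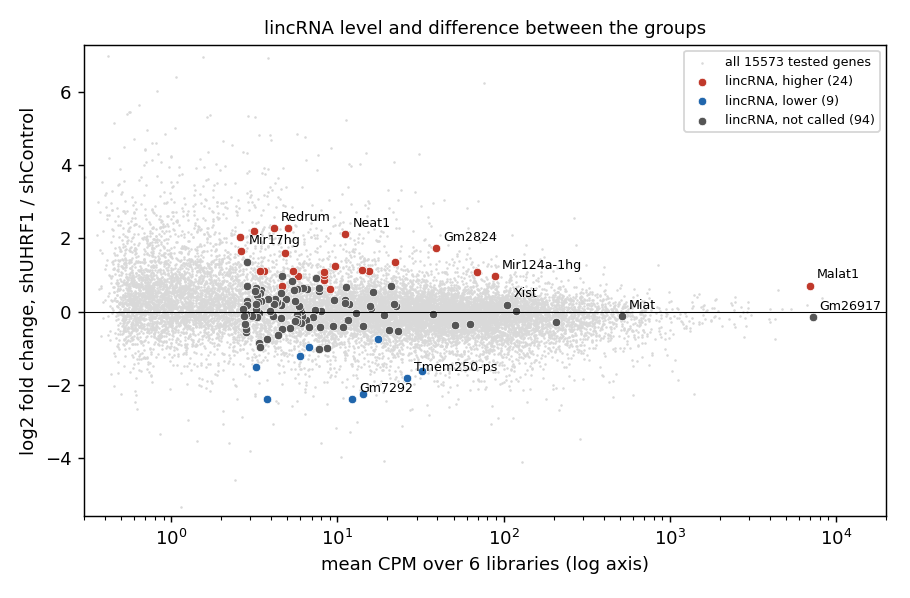
Log2 fold change of shUHRF1 over shControl (vertical axis) against the mean level over 6 libraries in CPM (horizontal log axis), for the 127 lincRNAs (coloured by call) and all 15573 genes tested (grey). The 24 higher lincRNAs include Malat1 near the right edge and a group of low genes around a log2 value of 2, and the 9 lower ones lie between -0.75 and -2.40.

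**Figure D2:**
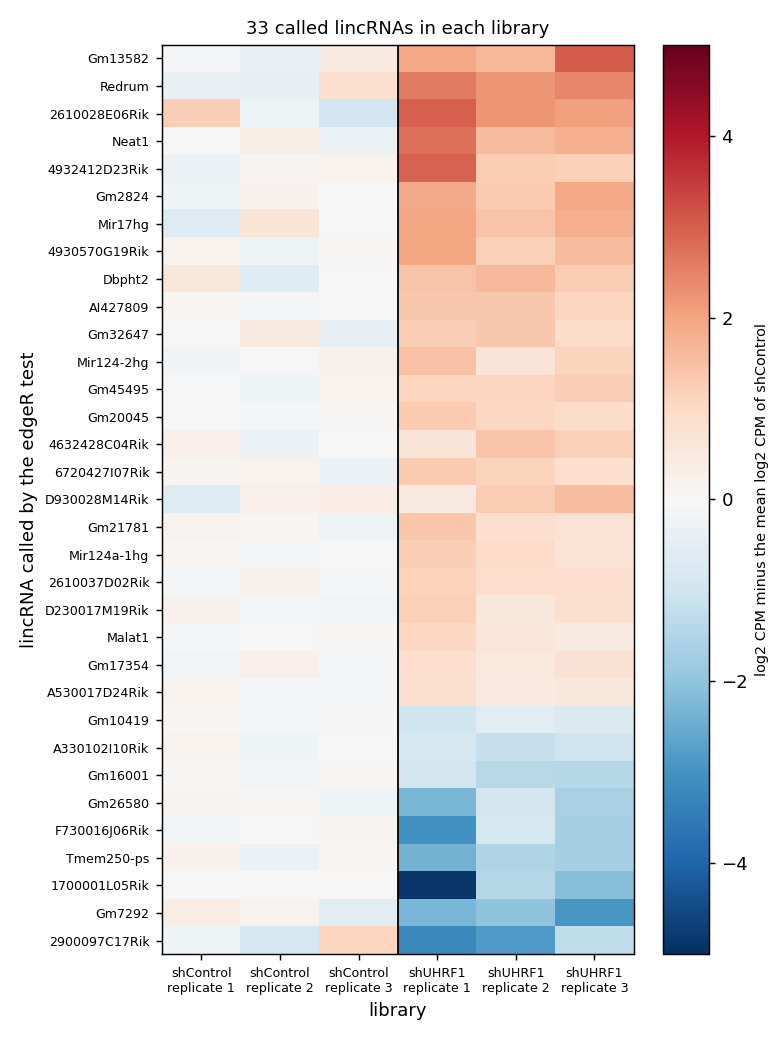
Level of each of the 33 called lincRNAs (rows, ordered by log2 fold change) in each library (columns), as log2 CPM minus the mean log2 CPM of the 3 shControl libraries; red is above and blue below that mean. For the 24 higher genes the shUHRF1 columns are red, and for the 9 lower genes they are blue.

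Malat1 and Neat1 are neighbours on chromosome 19, transcribed from the same strand with 22035 bases between them, and both were higher in shUHRF1. Malat1 (5795690 to 5802672, minus strand) is a retained nuclear RNA of the speckles, where splicing factors gather. It measured 5056, 5281 and 5473 CPM in shControl and 10714, 7936 and 7235 in shUHRF1. All shUHRF1 libraries lay above the shControl range, and replicate 1 was the highest. The log2 fold change was 0.71 ± 0.17 (edgeR adjusted p = 0.0193). Without any 1 of the 3 shControl libraries the adjusted p was 0.0565 to 0.0796, so that call rests on all of them, while the log2 value stayed between 0.66 and 0.73 in those fits.

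Neat1 (5824708 to 5845478, minus strand), the RNA scaffold of paraspeckles, was far less abundant than Malat1 per kilobase. Its level was 4.07, 5.18 and 3.35 CPM in shControl and 28.1, 12.3 and 14.2 in shUHRF1. The groups were far apart, again with shUHRF1 replicate 1 on top. The log2 fold change was 2.12 ± 0.35 (edgeR adjusted p = 0.00507). The nearest coding gene of Neat1 is Frmd8, 4224 bases away with Neat1 downstream of it on the same strand, and Frmd8 had a log2 fold change of -0.54 (edgeR adjusted p = 0.0187). The Frmd8 call was lost without shControl replicate 1 (adjusted p = 0.0642), shControl replicate 3 (0.0783) or shUHRF1 replicate 3 (0.0591).

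Xist and Ftx, both from the X inactivation centre, were not called. Xist coats the inactive X chromosome of female cells, and Ftx is a noncoding gene of the same region whose introns hold microRNAs. Xist measured 39.1, 141.6 and 111.7 CPM in shControl and 40.7, 138.7 and 153.9 in shUHRF1. It was low in both libraries numbered 1 and high in the other four, a difference within groups that was larger than that between them (log2 fold change 0.19 ± 0.55, edgeR adjusted p = 0.842). The summed Y-linked genes Ddx3y, Eif2s3y, Kdm5d and Uty were 141.6, 140.7 and 53.1 CPM in shControl and 160.0, 142.6 and 73.8 in shUHRF1, lowest in both libraries numbered 3. Each library held both Xist and Y-linked RNA. Ftx had a log2 fold change of 0.11 ± 0.26 (edgeR adjusted p = 0.805). Of the other genes on that list 2 were tested and edgeR called 0 of them, with 0 at an unadjusted p below 0.05 and 0 by DESeq2, Firre being at 0.15 ± 0.18 (adjusted p = 0.595).

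**Figure D3:**
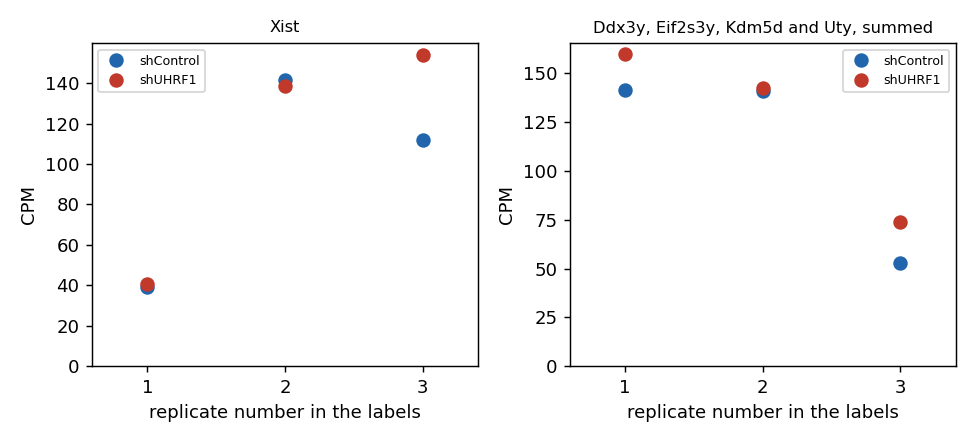
CPM of Xist (left) and of 4 Y-linked genes summed (right) in each library, by the replicate number in the labels; blue points are shControl and red points shUHRF1. Same-numbered libraries of the 2 groups lie close together: Xist is low in the libraries numbered 1 (39.1 and 40.7 CPM), and the Y-linked sum is low in those numbered 3 (53.1 and 73.8 CPM).

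Of the 127 members 12 hold an annotated microRNA gene within their body on the same strand. MicroRNAs are cut from such primary transcripts in the nucleus, and the mature strand pairs with target mRNAs mainly through its seed, bases 2 to 8. In this group 4 hosts were higher, 0 were lower and 8 were not called, so 33.3% were called beside 24.0% of all genes tested, with a median log2 fold change of 0.15 beside 0.16 over all members. The 4 were Mir17hg, Mir124-2hg, 6720427I07Rik and Mir124a-1hg. Of these Mir17hg and Mir124-2hg had under 150 reads in shControl. Only the host transcript was counted, so these values say nothing of the mature microRNAs. Of the mature sequences within Mir17hg (chromosome 14, 115042879 to 115046727, plus strand), a cluster known for promoting proliferation, the main strand of each of its 6 microRNAs is shown with the seed in capitals because these 6 fall into 4 seed groups (RefSeq, GRCm38.p6). The other strands are not shown. miR-17-5p and miR-20a-5p share a seed, miR-19a-3p and miR-19b-3p share another, and miR-18a-5p and miR-92a-3p have their own.
miR-17-5p: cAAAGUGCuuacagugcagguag
miR-20a-5p: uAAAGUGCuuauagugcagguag
miR-18a-5p: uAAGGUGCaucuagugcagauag
miR-19a-3p: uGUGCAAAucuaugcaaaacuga
miR-19b-3p: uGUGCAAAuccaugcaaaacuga
miR-92a-3p: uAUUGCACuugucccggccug

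6720427I07Rik (chromosome 13, 48532905 to 48546500, minus strand) holds a cluster of let-7 genes, a family that rises as cells differentiate. The mature 5′ strands of its 3 let-7 genes are shown because all share the let-7 seed, again in capitals.
let-7a-5p: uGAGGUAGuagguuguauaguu
let-7f-5p: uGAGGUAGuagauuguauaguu
let-7d-5p: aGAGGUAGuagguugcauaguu

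The host of the let-7 cluster measured 5.75, 5.89 and 4.35 CPM in shControl and 13.2, 11.4 and 9.40 in shUHRF1. The groups did not overlap, and the log2 fold change was 1.09 ± 0.21 (edgeR adjusted p = 0.00931). Mir17hg, whose microRNAs repress other targets through the seeds shown above, measured 0.755, 1.88 and 1.20 CPM in shControl and 4.63, 3.18 and 4.21 in shUHRF1. The groups were apart by more than 1 CPM, with a log2 fold change of 1.66 ± 0.36 (edgeR adjusted p = 0.0146). The call was lost without shControl replicate 3 (adjusted p = 0.0637) or shUHRF1 replicate 3 (0.0543), and Mir17hg was among the members under 150 reads in shControl.

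Both members that host miR-124, a microRNA abundant in neurons, were higher. Mir124a-1hg (chromosome 14, 64587331 to 64593961, plus strand) had 64.4, 56.6 and 59.3 CPM in shControl and 140, 115 and 96.6 in shUHRF1. Every shUHRF1 library exceeded every shControl library. The log2 fold change was 0.96 ± 0.15 (edgeR adjusted p = 0.00426). Mir124-2hg (chromosome 3, 17789921 to 17808970, plus strand) had 1.92, 2.14 and 2.49 CPM in shControl and 6.06, 3.42 and 4.65 in shUHRF1, again with no overlap. Its log2 fold change was 1.11 ± 0.28 (edgeR adjusted p = 0.0253), and the call held only without shUHRF1 replicate 2: leaving out any of the other 5 libraries gave an adjusted p of 0.0578 to 0.0942.

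The other hosts named by the rule were not called. 5330434G04Rik, host of miR-325, had 70.1 ± 8.48 CPM (SD, n = 3) in shControl and 55.1 ± 13.9 in shUHRF1, a log2 fold change of -0.35 ± 0.19 (edgeR adjusted p = 0.218). C230004F18Rik, which RefSeq names Cdr1os and which runs along the locus of the circular RNA Cdr1as, had 24.0 ± 8.27 and 16.9 ± 12.4 CPM (log2 fold change -0.51 ± 0.49, adjusted p = 0.491). Both were called lower only when shUHRF1 replicate 2 was left out, with log2 values of -0.59 and -1.30 and edgeR adjusted p of 0.0289 and 0.0325. A230057D06Rik, which holds miR-344 genes, had a log2 fold change of -0.42 ± 0.37 (adjusted p = 0.460). The host transcripts of miR-9 that GENCODE lists are not members: C130071C03Rik had 47 reads over all libraries and Mir9-3hg 11, and neither passed the filter.

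**Figure D4:**
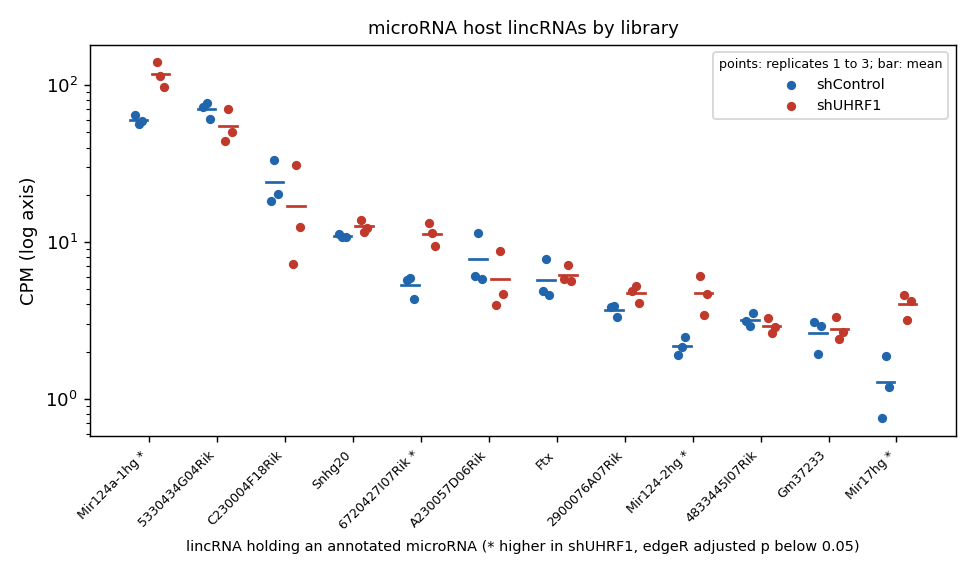
CPM (log axis) of the 12 lincRNAs that hold a microRNA gene, ordered by mean level; blue points are the 3 shControl libraries, red points the 3 shUHRF1 libraries, short lines the group means, and a star marks a called gene. The red points of Mir124a-1hg, 6720427I07Rik, Mir124-2hg and Mir17hg all lie above the blue ones.

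The 7 members that hold small nucleolar RNA genes, whose products guide modification of ribosomal RNA, included 0 called by edgeR, 0 at an unadjusted p below 0.05 and 0 called by DESeq2. Their median log2 fold change was -0.03, and edgeR called 24.0% of all genes tested. Snhg6 was at -0.40 ± 0.18 (edgeR adjusted p = 0.153), Snhg12 at 0.32 ± 0.23 (0.362), Snhg18 at -0.14 ± 0.24 (0.719) and Snhg20, which also holds miR-6516, at 0.20 ± 0.15 (0.382). Among the others Gm26945, from the imprinted Dlk1-Dio3 region, measured 17.6, 27.7 and 13.7 CPM in shControl and 11.9, 29.1 and 13.9 in shUHRF1, so it was high in both libraries numbered 2.

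Of 5 members on a list of lncRNAs studied in the nervous system 1 was lower and 0 were higher. The lower member was 2900097C17Rik (chromosome 2, 156388065 to 156392979, minus strand), which RefSeq names Norad, a cytoplasmic RNA that binds Pumilio proteins. It measured 4.65, 3.04 and 11.3 CPM in shControl and 0.584, 0.765 and 2.23 in shUHRF1. The groups did not overlap, but the spread was wide, with replicate 3 the highest in both. The log2 fold change was -2.40 ± 0.63 (edgeR adjusted p = 0.0294). Without shControl replicate 3 it was -1.69 (adjusted p = 0.109), and the call was also lost without shControl replicate 1 or either of shUHRF1 replicates 1 and 2 (adjusted p 0.0552 to 0.0658). Without shUHRF1 replicate 3 it was -3.24. Its counts in shUHRF1 summed to fewer than 150 reads.

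The other members of that list were not called. Miat measured 503, 575 and 542 CPM in shControl and 396, 671 and 408 in shUHRF1, where replicate 2 stood above the shControl range and the other libraries below it. Its log2 fold change was -0.14 ± 0.21 (edgeR adjusted p = 0.678), and without shUHRF1 replicate 2 it was -0.45 (adjusted p = 0.0378). 1700020I14Rik had 226, 237 and 223 CPM in shControl and 187, 167 and 208 in shUHRF1. Its groups did not overlap, yet its log2 fold change of -0.29 ± 0.11 missed the threshold (edgeR adjusted p = 0.109). Epb41l4aos was at -0.03 ± 0.27 (adjusted p = 0.957). Of 8 listed genes that were tested but are not members, 3 were higher and 1 was lower by edgeR, which called 24.0% of all genes tested. On the log2 scale Tunar was at 2.09, 2810468N07Rik at 1.11, 6330403K07Rik at 0.86 and Tug1 at -0.60.

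Of 3 growth-linked members edgeR called 0 and DESeq2 0, with 2 at an unadjusted p below 0.05, Pvt1 and Dubr. The share that edgeR called was 24.0% over all genes tested. Pvt1, which lies 47612 bases from Myc on the same strand, measured 12.6, 11.4 and 13.0 CPM in shControl and 10.01, 9.42 and 8.19 in shUHRF1. That gave a log2 fold change of -0.42 ± 0.16 (edgeR adjusted p = 0.0919), and Myc was at -0.13 (adjusted p = 0.751). The Pvt1 libraries did not overlap between groups. Dubr, an RNA known from muscle differentiation, was at -0.53 ± 0.22 (adjusted p = 0.118), and at -0.55 (adjusted p = 0.0215) with the replicate number as a block. Lncpint, induced by p53, was at -0.27 ± 0.28 (adjusted p = 0.527). Among 5 further listed genes tested Dleu2 was higher at 1.06 (edgeR adjusted p = 0.0216). Of 12 lncRNAs of the Hox clusters 0 were members, and of the 7 that were tested edgeR called 0 and DESeq2 0, with 0 at an unadjusted p below 0.05.

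The largest log2 fold changes among the higher members were those of Redrum, Gm13582 and 2610028E06Rik. Each had under 150 reads in shControl and so reached the 300 reads of the rule through shUHRF1, which ties a low level there to a rise. Redrum (chromosome 18, 54422295 to 54453294, plus strand), a lincRNA described in red blood cell maturation, measured 0.987, 0.971 and 2.25 CPM in shControl and 7.77, 5.89 and 7.02 in shUHRF1. The lowest shUHRF1 library was more than 3 CPM above the highest shControl library. The log2 fold change was 2.27 ± 0.36 (edgeR adjusted p = 0.00444). Its nearest coding gene, Zfp608, lies 434754 bases away and had a log2 fold change of 2.33 (adjusted p = 0.0022).

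Gm13582 (chromosome 2, 60964376 to 60975151, minus strand) measured 1.57, 1.29 and 2.30 CPM in shControl and 6.47, 5.30 and 13.5 in shUHRF1. The groups were apart, with shUHRF1 replicate 3 highest, and the log2 fold change was 2.27 ± 0.41 (edgeR adjusted p = 0.00737). Rbms1, which encodes a nucleic acid binding protein and lies 1184 bases away on the same strand, was not called (log2 fold change -0.27, adjusted p = 0.108). 2610028E06Rik (chromosome 4, 125887851 to 125922417, minus strand) measured 2.15, 0.777 and 0.478 CPM against 7.45, 4.30 and 3.83, a log2 fold change of 2.20 ± 0.54 (edgeR adjusted p = 0.0226). Replicate 1 was highest in both groups, and leaving out shControl replicate 2 (0.0711) or 3 (0.0703), or shUHRF1 replicate 1 (0.0517), ended the call. Without shControl replicate 1 the log2 fold change was 3.04.

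Gm2824 (chromosome 15, 24981620 to 25027358, minus strand) was the most abundant of the strong rises. It measured 15.4, 20.7 and 18.3 CPM in shControl and 66.8, 44.9 and 68.1 in shUHRF1. No library of the groups overlapped, and the log2 fold change was 1.73 ± 0.19 (edgeR adjusted p = 0.00142). Its nearest coding gene, Basp1, a growth cone protein of neurons, lies 335919 bases away and was at -0.58 (adjusted p = 0.0222), so both were called in opposite directions.

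Further rises with a full separation of the groups followed. Dbpht2, a coding gene in RefSeq, measured 17.6, 7.83 and 11.9 CPM in shControl and 31.5, 35.9 and 28.2 in shUHRF1, a log2 fold change of 1.36 ± 0.27 (edgeR adjusted p = 0.0107, and 0.0508 without shControl replicate 3). AI427809, named Mexis in RefSeq and known for its link to the cholesterol transporter gene Abca1, measured 6.04, 5.31 and 5.84 CPM against 14.4, 14.4 and 11.9. Its libraries were tight in both groups, with a log2 fold change of 1.24 ± 0.17 (edgeR adjusted p = 0.00248). Abca1, 101461 bases away, was at 0.41 (adjusted p = 0.275). Gm32647 measured 8.36, 11.8 and 6.41 CPM against 20.3, 21.8 and 16.2, a log2 fold change of 1.14 ± 0.24 (edgeR adjusted p = 0.0132, and 0.0581 without shControl replicate 1). Gm45495 was at 1.11 (edgeR adjusted p = 0.00286) with 9.82 ± 1.27 CPM (SD, n = 3) in shControl and 21.2 ± 1.47 in shUHRF1, and both groups were tight.

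Except for 4932412D23Rik and 4930570G19Rik, described with their coding neighbours, the remaining higher members had log2 fold changes between 0.62 and 1.10. Gm20045 was at 1.10 and 4632428C04Rik at 1.10 as well. Gm20045 had under 150 reads in shControl and so reached the 300 reads of the rule through shUHRF1. The nearest coding gene of 4632428C04Rik, 42954 bases away, is Hes1, a Notch target and transcriptional repressor, whose log2 fold change was 3.78 (edgeR adjusted p = 0.00154). D930028M14Rik was at 1.09 ± 0.33 with an edgeR adjusted p of 0.047, and its call was lost when any library but shUHRF1 replicate 1 was left out (adjusted p 0.0783 to 0.156) and with limma-voom (0.055). It overlaps Pou2f2 on the opposite strand, and Pou2f2 was at 0.57 (adjusted p = 0.114). Gm21781 was at 1.0, 2610037D02Rik at 0.96, D230017M19Rik at 0.88, Gm17354 at 0.70 and A530017D24Rik at 0.62. The call of 4632428C04Rik was lost without shControl replicates 2 or 3 or shUHRF1 replicates 2 or 3 (0.0503 to 0.0763), that of Gm21781 and of 2610037D02Rik without shControl replicates 1 or 3 (0.0528 to 0.0837), and that of D230017M19Rik without shControl replicates 2 or 3 or shUHRF1 replicate 3 (0.0623 to 0.099). Gm17354 lost its call whichever library was left out, and A530017D24Rik when any but shUHRF1 replicate 2 was left out (0.0536 to 0.168).

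Among the 9 lower members Gm7292 (chromosome 6, 117716342 to 117718868, plus strand) was at 26.0, 22.3 and 13.8 CPM in shControl and at 4.09, 5.005 and 2.66 in shUHRF1. The highest shUHRF1 library was below the lowest shControl library by more than 8 CPM. Its log2 fold change was -2.40 ± 0.31 (edgeR adjusted p = 0.00212). Tmem250-ps (chromosome 2, 26136814 to 26140521, minus strand), coding in RefSeq, measured 46.2, 32.7 and 43.5 CPM against 7.95, 14.1 and 12.8, a log2 fold change of -1.82 ± 0.24 (edgeR adjusted p = 0.00217). No library overlapped there either.

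F730016J06Rik and 1700001L05Rik were even in shControl and scattered in shUHRF1. F730016J06Rik (chromosome 2, 28095477 to 28127731, plus strand) measured 44.0, 49.7 and 53.1 CPM in shControl and 5.93, 26.4 and 15.4 in shUHRF1, a log2 fold change of -1.63 ± 0.44 (edgeR adjusted p = 0.0311). 1700001L05Rik (chromosome 15, 83353847 to 83367282, minus strand) measured 23.5, 23.2 and 23.8 CPM in shControl and 0.808, 8.83 and 5.42 in shUHRF1, a log2 fold change of -2.24 ± 0.62 (edgeR adjusted p = 0.0342). In both genes shUHRF1 replicate 1 was the lowest library and replicate 2 the highest of its group. Both calls were lost without any 1 shControl library or without shUHRF1 replicate 3 (adjusted p 0.0672 to 0.0987) and kept without shUHRF1 replicate 1 or 2. Without shUHRF1 replicate 2 the log2 fold change was -2.22 for F730016J06Rik and -2.94 for 1700001L05Rik, and for the latter also -2.87 with limma-voom.

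The other lower members changed less. Gm26580 (chromosome 1, 21959842 to 21962530, plus strand) measured 5.23, 4.98 and 4.16 CPM in shControl and 0.988, 2.53 and 1.55 in shUHRF1, a log2 fold change of -1.51 ± 0.35 (edgeR adjusted p = 0.0183, and 0.0504 to 0.0695 without shControl replicates 1 or 3 or shUHRF1 replicate 3). Gm16001 (chromosome 5, 124111109 to 124112264, minus strand) measured 8.65, 7.51 and 8.85 CPM against 4.36, 3.18 and 3.10, a log2 fold change of -1.23 ± 0.21 (edgeR adjusted p = 0.00645). Both groups were tight. A330102I10Rik was at -0.98 (adjusted p = 0.0113, and 0.05 without shControl replicate 3), and its nearest coding gene Sox4, a transcription factor of immature neurons 60686 bases away, was at -0.07 (adjusted p = 0.690). Gm10419 measured 22.8, 20.6 and 23.0 CPM against 11.0, 15.1 and 13.4, a log2 fold change of -0.75 ± 0.16 (edgeR adjusted p = 0.0132, and 0.0502 to 0.0566 without shControl replicates 1 or 3).

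Most members lie close to a coding gene. The body of 26 overlapped the nearest protein-coding gene, 48 lay within 5 kb of it, 53 lay further away and 27 of those over 50 kb, with a median gap of 3124 bases. Divergent arrangements, with the lincRNA and the coding gene starting away from each other, were the most frequent with 46 members, of which 6 were higher and 3 lower, or 19.6% called beside 24.0% of all genes tested. The strand setting of the counting is not given in the sources used here, so reads of genes that overlap on opposite strands cannot be told apart. The exons of 22 members overlapped coding exons, and 2 of these were higher and 2 lower, or 18.2% called. Those of 105 did not, and 22 were higher and 7 lower, or 27.6% called, and the difference between these shares was not tested.

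Of the members within 5 kb, 67 formed a pair in which both genes were tested. Both were called in 7 pairs: 3 were higher together, 3 lower together and 1, Neat1 with Frmd8, in opposite directions. In 9 pairs edgeR called only the lincRNA, in 11 only the coding gene, and in 40 neither. Thus 18 of the 67 coding neighbours were called, beside 26.5% of all coding genes tested. The log2 fold changes had the same sign in 50 of the 67 pairs, with Pearson r = 0.45 and Spearman rho = 0.41 across pairs, given as a description since pairs share the same libraries. In the 48 pairs whose exons overlap no coding exon these were 0.44 and 0.39. Over the 40 pairs further than 5 kb apart r was 0.31 and rho 0.24, with the same sign in 22. Whether the near and the far pairs differ was not tested.

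The 3 pairs within 5 kb that rose together were divergent. Of their lincRNAs 4932412D23Rik and 4930570G19Rik had under 150 reads in shControl. They reached the 300 reads of the rule through shUHRF1, which ties a low shControl level to a rise. 4932412D23Rik (chromosome 16, 42725702 to 42875762, minus strand) starts 119 bases from Zbtb20, a zinc finger repressor of neural development. It measured 0.813, 1.10 and 1.15 CPM in shControl and 7.81, 2.41 and 2.32 in shUHRF1, a log2 fold change of 2.03 ± 0.53 (edgeR adjusted p = 0.0278). Replicate 1 stood far above the rest, and the call was lost without any 1 shControl library (0.07 to 0.0969) and with limma-voom (0.0596). Without shUHRF1 replicate 1 the log2 fold change was 1.20 (adjusted p = 0.0351). Zbtb20 went from 33.9 ± 3.64 to 145 ± 27.6 CPM (SD, n = 3 and 3), a log2 fold change of 2.09 ± 0.16 (edgeR adjusted p = 0.000498).

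4930570G19Rik (chromosome 3, 156546753 to 156561746, minus strand) starts 48 bases from Negr1, a cell adhesion molecule of neurons. It measured 2.67, 2.01 and 2.49 CPM in shControl and 9.43, 5.42 and 7.07 in shUHRF1, without overlap, a log2 fold change of 1.61 ± 0.27 (edgeR adjusted p = 0.00553). Negr1 went from 80.0 ± 9.91 to 261 ± 49.7 CPM (SD, n = 3 and 3), a log2 fold change of 1.71 ± 0.17 (adjusted p = 0.000867). The third pair was 2610037D02Rik, 3023 bases from Arid2, a subunit of a chromatin remodelling complex, with 0.96 for the lincRNA and 0.43 for Arid2 (edgeR adjusted p = 0.042). The Arid2 call was lost whichever library was left out (0.0506 to 0.17).

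Of the pairs that fell together 2 are overlaps on opposite strands. Gm26580 overlaps exons of Kcnq5, a neuronal potassium channel gene, on the other strand. The starts of these genes lie 2100 bases apart, and Gm26580 runs past the start of Kcnq5. Gm26580 had under 150 reads in shUHRF1, so it entered the set mainly through shControl. Kcnq5 had 109 CPM in shControl and 51.0 in shUHRF1, at a log2 fold change of -1.10 ± 0.18 (edgeR adjusted p = 0.00468). Gm10419 overlaps Gm42517, at -1.20 (adjusted p = 0.012). In the remaining pair 1700001L05Rik lies 3600 bases upstream of Arfgap3, a regulator of Golgi traffic, on the same strand. Arfgap3 went from 95.0 ± 14.2 to 41.8 ± 6.78 CPM (SD, n = 3 and 3), a log2 fold change of -1.18 ± 0.16 (edgeR adjusted p = 0.00258).

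Closeness did not always go with a shared change. Gm16001 starts 33 bases from Ogfod2 in a divergent arrangement, and Ogfod2 was at -0.16 (edgeR adjusted p = 0.388) while Gm16001 was at -1.23. Snhg18 starts 148 bases from Sema5a, an axon guidance gene, with the reverse: Sema5a was at -0.68 (adjusted p = 0.028) and Snhg18 at -0.14. Among the distant pairs Mir17hg and Gpc5, a heparan sulfate proteoglycan gene 45488 bases downstream, were both higher, with Gpc5 going from 7.98 to 39.2 CPM at a log2 fold change of 2.29 (edgeR adjusted p = 0.000904).

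**Figure D5:**
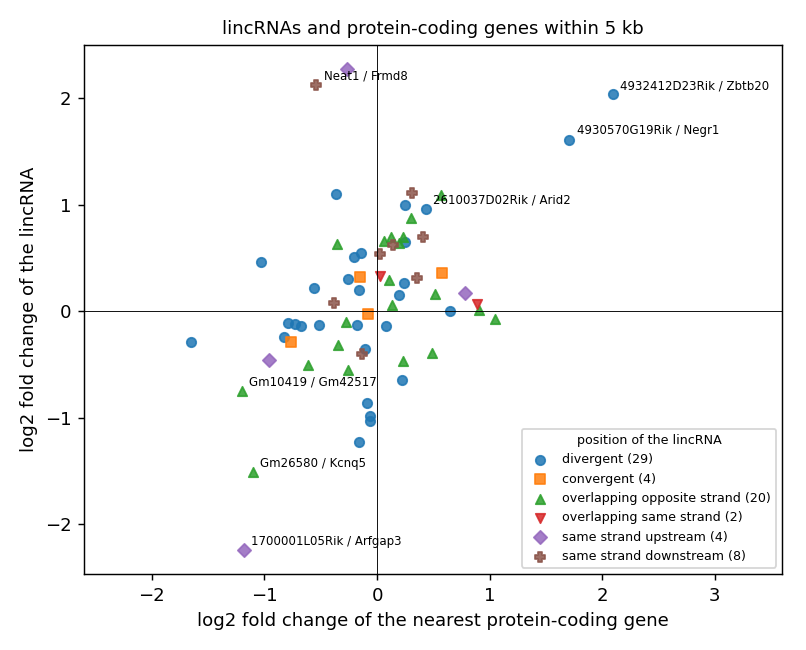
Log2 fold change of each lincRNA (vertical axis) against that of its nearest protein-coding gene (horizontal axis) for the 67 pairs within 5 kb in which both were tested; the marker gives the arrangement of the pair, and the 7 pairs with both genes called are named. The pairs with Zbtb20 and Negr1 lie at the upper right, those with Kcnq5, Arfgap3 and Gm42517 at the lower left, and Neat1 with Frmd8 at the upper left.

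UHRF1 reads the methylation of CpG sites, so the CpG content of the start regions is given here as a description. RefSeq held a promoter window for 51 members, 250 bases before to 50 after a start within 500 bases of the GENCODE start. The median was 16 CpG sites in 300 bases, beside 14 for 20150 coding windows. The observed-to-expected CpG ratio exceeded 0.6 in 60.8% of the member windows and in 49.1% of the coding ones. Members starting within 1 kb of a coding start on the other strand had a median of 34.5 sites (n = 16) and the other members 10 (n = 35). The 6 windows of higher members had a median of 8.5 sites and the 4 of lower members 32.0, which are too few for a comparison. No methylation was measured here.

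The start regions of 4 called members are printed because they span this range (RefSeq, GRCm38.p6, CpG sites in capitals, the strand of the lincRNA, bases that lie in the neighbouring coding gene removed). The window of 4930570G19Rik, printed at chr3:156561697-156561793 on the minus strand, next to Negr1, holds 37 CpG sites in its 300 bases, 10 of them in the 97 bases printed. That of 4932412D23Rik, printed at chr16:42875713-42875880 on the minus strand, next to Zbtb20, holds 26, with 12 in the 168 bases printed. That of 1700001L05Rik, which was lower, at chr15:83367248-83367547 on the minus strand holds 30 in 300 bases, and that of Gm13582, which was higher, at chr2:60975102-60975401 on the minus strand holds 2 in 300 bases.
4930570G19Rik: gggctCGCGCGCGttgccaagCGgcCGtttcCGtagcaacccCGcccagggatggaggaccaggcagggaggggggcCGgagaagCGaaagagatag
4932412D23Rik: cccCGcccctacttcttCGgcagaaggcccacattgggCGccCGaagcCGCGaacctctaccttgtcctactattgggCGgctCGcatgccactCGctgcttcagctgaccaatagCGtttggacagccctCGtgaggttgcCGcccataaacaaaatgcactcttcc
1700001L05Rik: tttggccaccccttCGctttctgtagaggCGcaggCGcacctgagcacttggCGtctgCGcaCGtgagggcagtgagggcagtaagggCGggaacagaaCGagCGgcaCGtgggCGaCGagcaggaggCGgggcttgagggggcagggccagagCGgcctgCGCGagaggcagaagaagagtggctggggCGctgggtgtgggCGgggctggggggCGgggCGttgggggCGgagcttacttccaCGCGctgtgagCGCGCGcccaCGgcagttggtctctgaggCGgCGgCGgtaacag
Gm13582: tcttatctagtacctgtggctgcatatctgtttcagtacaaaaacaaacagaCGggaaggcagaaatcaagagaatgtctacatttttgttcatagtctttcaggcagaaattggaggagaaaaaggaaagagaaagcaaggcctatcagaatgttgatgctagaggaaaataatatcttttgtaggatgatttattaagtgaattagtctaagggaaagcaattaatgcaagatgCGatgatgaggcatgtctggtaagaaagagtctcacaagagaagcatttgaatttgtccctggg

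The exons of the higher members had a median summed length of 4821 bases, those of the lower members 2527 and those of the members not called 2877, given as a description. Whether length bears on the calls was not tested.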

How the data were processed

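The authors' deposited files give whole-number read counts per Ensembl gene, 1 file per library. Per the submitters' processing notes, FastQC, STAR, HTSeq and DESeq2 were used with mm10; their versions, the annotation and the strandedness of counting were not given in the sources used here. Per the labels' protocols, total RNA was ribosome-depleted and copied with a SMARTer kit. Rows that name no gene, such as reads in no feature (8.43% to 17.18% of reads), were left out. Of the identifiers 47224 matched GENCODE M21, and 419, with 0.04% of reads, did not.

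Counts of all genes were fitted in edgeR 4.0.16 (R 4.3.3; TMM scaling, filterByExpr, quasi-likelihood test), with Benjamini-Hochberg adjustment over all genes tested, and members were read from that fit. CPM use TMM-scaled library sizes, and ± after a log2 fold change is the standard error. The script was tested on simulated counts.

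Same-numbered libraries of both groups deviated together (correlations of deviations from the group means 0.32, 0.40 and 0.40; other pairs -0.28 to 0), so the numbers pair the samples; the labels give no source for the pairing. The main fit has no block.

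The members, gene lists and naming rule were chosen with earlier results of these data known. The rule named the 10 members highest per kb, up to 12 largest rises and 12 largest falls among called members with separate groups, up to 6 members of each list by level, and coding genes within 5 kb; other names were chosen after their values were seen. Alternatives were DESeq2 1.42.0, limma-voom (limma 3.58.1), other scalings and filters, the replicate block, libraries left out, a minimum of 600 reads, an adjusted p below 0.01 and members over 5 kb from a coding gene. Nearest coding genes came from GENCODE M21, and sequences and gene types from RefSeq.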

Additional observations from a re-analysis of the deposited data

How the results depend on the processing

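The 24 higher and 9 lower members became 32 and 15 with the replicate block, 9 and 3 at an adjusted p below 0.01, and 12 and 5 over the 53 members more than 5 kb from a coding gene, the last of these because fewer members were counted. Leaving out each library in turn gave 11 to 21 higher and 3 to 13 lower, with the fewest without shControl replicate 3 and the most lower calls without shUHRF1 replicate 2. DESeq2 gave 29 and 11, limma-voom 24 and 10, and no filter on low counts 25 and 12. Upper-quartile scaling gave 30 and 9 and raised the overall median on the log2 scale from 0.017 to 0.142 and that of the members from 0.16 to 0.28. All 33 called members kept their call with DESeq2 and with the block, 31 with limma-voom, 24 on library pairs 1 and 3 only, and 14 to 29 with 1 library left out. The block added 14 members to the calls. Over all genes the calls went from 3735 to between 1768 and 3888 with 1 library left out, and to 4820 with the block. The cause of these changes was not tested. In members near 300 reads, small differences were not detectable at this depth.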
